A study of Mus musculus with 10 samples.

Results

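The 9 desmosome components described here were the cadherins Dsg2, Dsg3 and Dsc2, the membrane protein Perp, the plakophilins Pkp1, Pkp2 and Pkp3, plakoglobin (Jup) and desmoplakin (Dsp). They were chosen by name, as components of the desmosome, and with earlier results of these data known. They make up 9 of the 19096 genes with a named probe on the array. Together they had 17 of the 41174 probes, and the probe with the highest mean over all arrays stood for each gene. Total RNA of 5 WT lungs and of 5 squamous cell carcinomas (SCC) that arose in the lungs of Lkb1d/d mice had been hybridised to one-colour Agilent whole-genome arrays, to learn which genes differ in SCC that forms without Lkb1 (Stk11), a tumour suppressor kinase. The WT mice were Lkb1f/f and the SCC mice were CCSPiCreLkb1f/f. Both groups thus carried the floxed Lkb1 allele, and the labels give the iCre to the SCC group alone. The labels give the strain of all mice as B6.129. All mice were 13 months old and untreated. The CCSP promoter drives iCre in the airway epithelium, including basal cells of the proximal airway, so the deletion was aimed at that epithelium and not at the other cells of the lung. WT RNA came from whole lung, and SCC RNA from whole tumour with whatever stroma and adjoining lung it held. The floxed gene itself was not analysed here.

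Desmosomes are button-like junctions that rivet epithelial and heart muscle cells to their neighbours. Desmogleins and desmocollins, 2 kinds of cadherin, cross the gap between cells; plakoglobin and the plakophilins bind their tails; and desmoplakin ties the plaque to intermediate filaments, which are keratins in epithelium. Dsg2, Dsc2, Pkp2, Pkp3, Jup and Dsp occur in simple as well as stratified epithelia, several of them also in heart muscle, whereas Dsg3, Pkp1 and Perp are characteristic of stratified squamous epithelium. These are called widely expressed components and squamous isoforms below. By their levels in WT lung the split was not clean. Perp was at 12.04 to 12.30 on the WT arrays, while Dsc2 was well above background on 1 of them.

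A pair of SCC arrays stood apart. SCC replicate 2 correlated across probes with the WT arrays at r = 0.940 to 0.946, against 0.850 to 0.905 for the other SCC arrays. SCC replicate 5 had 90.2% of its probes well above background, against 71.0% to 74.3% on the other 9 arrays, and it showed both Xist (13.75) and the Y-linked gene Ddx3y (8.34 log2 units), which no other array combined at such levels. SCC replicate 2 was the only tumour with low Xist (2.58), and its Ddx3y was at 11.28. WT replicates 2 and 3 had Xist at 4.33 and 2.27 and Ddx3y at 10.91 and 11.53. On the remaining arrays Xist was at 13.75 to 14.19. Differences of the desmosome genes are therefore given with and without SCC replicates 2 and 5. Krt5 and Trp63, which mark squamous and basal cells, were higher in SCC by 11.35 and 7.44 log2 units. All levels are log2 quantile-normalized intensities and all differences are SCC minus WT.

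Of the 9 desmosome genes, 7 were higher in SCC by 2-fold or more with a limma adjusted p under 0.05, and none was lower. Across the array 11.6% of 15587 tested genes were higher by the same rule, and 13.4% were lower. The 7 genes were Dsg2, Dsg3, Dsc2, Perp, Pkp1, Pkp3 and Dsp, and for each of them every SCC array lay above every WT array. Over all tested probes 16.3% showed that order. The exceptions were Pkp2 and Jup. Dsg3, Dsc2 and Pkp1 had passed the filter on dim probes through the SCC arrays alone, so a difference in these 3 was built into the selection. Of the 6 genes measured in both groups, 4 were higher. The median difference over the 9 genes was 3.07 log2 units (2.28 over the 6 measured in both groups), and over all tested genes it was -0.04. Of the 17 probes 14 were higher by the same rule, where 9.92% of all tested probes were. In whole tissue, fewer cells of a type and less RNA per cell cannot be told apart. Within slide 2, a glass support that carried 3 SCC arrays and 1 WT array, limma called 0 of the 9 and 0% of all tested genes. At an unadjusted p below 0.05, 6 of the 9 and 8.12% of all tested genes were higher there. With slide as a fixed block 7 of the 9 and 5.24% of all tested genes were called higher. That fit takes its differences from slide 2, the only slide with both groups, and so rests on 1 WT array. The other slides add to its estimate of spread alone. Without SCC replicate 2 the count stayed at 7 (13.1% of all tested genes), and without SCC replicates 2 and 5 it was 8 (13.4%), Jup being added.

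**Figure D1:**
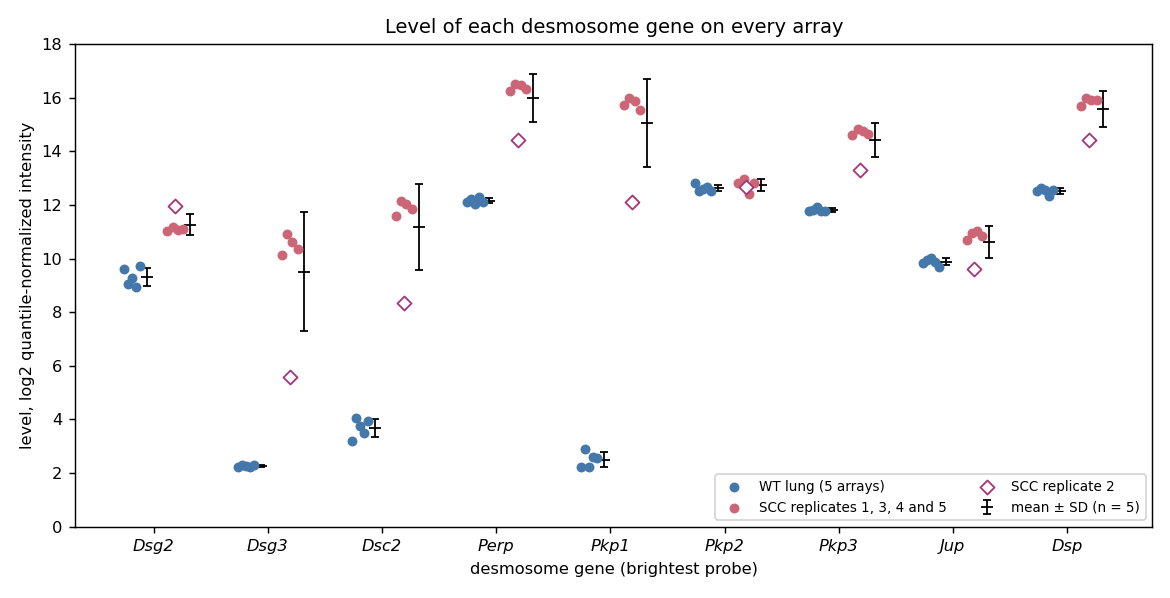
Level of each desmosome gene (log2 quantile-normalized intensity, brightest probe) on the 5 WT arrays and the 5 SCC arrays, with SCC replicate 2 drawn as an open diamond and black bars for mean ± SD (n = 5). The groups are separate for 7 genes and overlap for Pkp2 and Jup, and SCC replicate 2 is the lowest SCC array for 7 genes but the highest for Dsg2.

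The cadherins were led by the pair that WT lung hardly expressed. Dsg3, the desmoglein of basal squamous layers, was at 2.23, 2.29, 2.26, 2.23 and 2.31 on WT replicates 1 to 5, none of them well above background. In SCC it was at 10.13, 5.57, 10.90, 10.62 and 10.36. SCC replicate 2 was thus far below its group but still above every WT array. Dsg3 was at least 44.5-fold higher in SCC on the scale of the processed intensities (limma difference 7.25, SE 0.90, adjusted p 0.00016), and without SCC replicate 2 the difference was 8.24, or at least 88.2-fold. With normexp background correction, an alternative, the difference was 3.16, which is below that bound. Normexp added an offset of 50 to every signal, which shrinks log2 differences of dim probes, so its values are on another scale. Dsc2, the desmocollin of both simple and stratified epithelia, was at 3.20, 4.04, 3.75, 3.50 and 3.93 in WT, where 1 of 5 arrays was well above background. Its SCC levels were 11.59, 8.35, 12.14, 12.03 and 11.86. The groups were separate, with SCC replicate 2 again the lowest. The limma difference was 7.51 (SE 0.67, adjusted p 2.49e-05), and 4.67 with normexp. The other probes of Dsc2, dark on every WT array, were at least 112-fold and at least 73.5-fold higher in SCC, and at least 185-fold and at least 126-fold without SCC replicate 2.

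Dsg2, the desmoglein found in simple epithelium and heart, behaved differently across the tumours. It was at 9.59, 9.05, 9.26, 8.95 and 9.71 in WT and at 11.02, 11.95, 11.16, 11.08 and 11.11 in SCC. The groups did not overlap, and SCC replicate 2 was the highest array. The difference of 1.95 (SE 0.22, 95% interval 1.47 to 2.44, limma adjusted p 8.16e-05) is 3.87-fold, and it was 1.78 without SCC replicate 2. The probes disagreed in size. A pair of further probes differed by 2.27 and 2.57, while the last differed by 0.56 (limma adjusted p 0.0453), which is under 2-fold, and its groups overlapped.

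Perp, a membrane protein that desmosomes of stratified epithelium need for adhesion and a target of p53 and p63, was already bright in WT lung. Its WT levels were 12.13, 12.21, 12.04, 12.30 and 12.11, and its SCC levels 16.24, 14.41, 16.52, 16.48 and 16.33. Every tumour was above every lung. The difference was 3.84 (SE 0.37, limma adjusted p 3.91e-05), or 14.3-fold with a 95% interval of 8.07 to 25.3, and 4.23 log2 units without SCC replicate 2.

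The plakophilins, which gather cadherins and desmoplakin into the plaque, split 3 ways. Pkp1, the form of stratified epithelium, was at 2.24, 2.89, 2.23, 2.58 and 2.58 in WT, not well above background on any array. In SCC it was at 15.72, 12.11, 16.00, 15.89 and 15.56. Every tumour stood above every lung. Pkp1 was at least 2075-fold higher in SCC (limma difference 12.55, SE 0.68, adjusted p 2.07e-06). The difference was 13.29, or at least 3456-fold, without SCC replicate 2. With normexp, whose offset changes the scale, the difference was 8.30, again below the bound. Pkp3, present in almost all epithelia, was at 11.76, 11.82, 11.92, 11.77 and 11.78 in WT and at 14.60, 13.29, 14.84, 14.75 and 14.65 in SCC. Its groups were separate. It was 6.13-fold higher (difference 2.62, SE 0.27, limma adjusted p 5.50e-05), with a 95% interval of 4.04 to 9.29-fold.

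Pkp2, the plakophilin of simple epithelium and of the heart, was at 12.80, 12.51, 12.59, 12.66 and 12.53 in WT. It was at 12.83, 12.66, 12.97, 12.41 and 12.82 in SCC. The groups overlapped, and SCC replicate 4 was lower than every WT array. The difference was 0.12 (SE 0.12, limma adjusted p 0.423; exact two-sided permutation p 0.302), and its 95% interval ran from -0.15 to 0.38, that is from 0.904 to 1.30-fold. A change of Pkp2 of 2-fold lies outside this interval. Without SCC replicate 2 the difference was 0.14.

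Plakoglobin and desmoplakin are the core of the plaque and were both well measured in lung. Jup, which links cadherin tails to desmoplakin and can also serve adherens junctions, was at 9.85, 9.95, 10.03, 9.88 and 9.70 in WT. It was at 10.68, 9.60, 10.94, 11.03 and 10.85 in SCC. SCC replicate 2 fell below all WT arrays, and the other 4 SCC arrays were above all of them. The difference of 0.74 (SE 0.25) passed the adjusted p in limma (0.0335) but not the 2-fold requirement, at 1.67-fold with a 95% interval of 1.13 to 2.45. That adjusted p was lost when any 1 array other than SCC replicate 2 was left out (0.0523 to 0.0767), and with the methods' t-test (0.0513). Without SCC replicate 2 the difference was 0.99 (limma adjusted p 3.39e-05).

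Dsp was at 12.53, 12.64, 12.55, 12.32 and 12.54 in WT and at 15.70, 14.41, 15.98, 15.93 and 15.91 in SCC. The groups were separate, with 4 tumours within 0.3 log2 units of each other and SCC replicate 2 below them. Dsp was 8.40-fold higher (difference 3.07, SE 0.28, limma adjusted p 3.00e-05), with a 95% interval of 5.43 to 13.0-fold. Its further probes differed by 3.21, 2.95 and 1.78, all past the same rule. The groups overlapped for the last of them, since SCC replicate 2 was at 5.13 and the WT arrays reached 5.64.

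**Figure D2:**
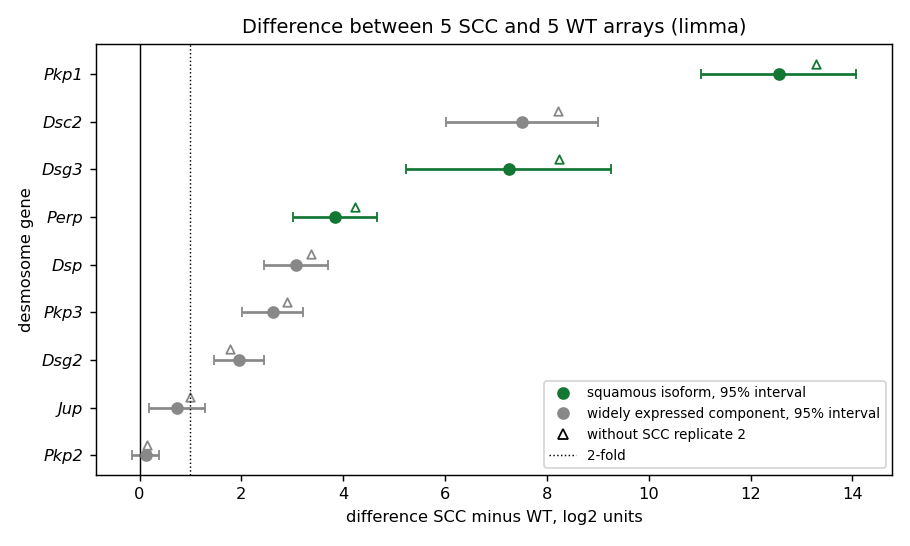
Difference between 5 SCC and 5 WT arrays for each desmosome gene, in log2 units with its 95% interval from limma (circles, green for squamous isoforms and grey for widely expressed components), and the difference without SCC replicate 2 (triangles). The values run from 12.55 for Pkp1 to 0.12 for Pkp2, whose interval spans 0; for Dsg3 and Pkp1, not well above background on any WT array, and for Dsc2, not on 4 of 5, the plotted difference is the fitted one and no measured fold.

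The promoters of Jup and Dsp are shown because these 2 of the 9 genes matched an entry in the RefSeq promoter table (GRCm38.p6). Each sequence is the 250 bases before the transcription start, read 5′ to 3′ on the gene's strand, for Jup chr11:100397791-100398040 (minus strand) and for Dsp chr13:38151044-38151293 (plus strand). Capitals mark matches on either strand to the motifs searched: the Grhl motif AACCNGTT, the AP-1 motif TGANTCA, the Snail and ZEB E-box CACCTG, the Sp1 motif GGGCGG and the p53 family half-site.
Jup: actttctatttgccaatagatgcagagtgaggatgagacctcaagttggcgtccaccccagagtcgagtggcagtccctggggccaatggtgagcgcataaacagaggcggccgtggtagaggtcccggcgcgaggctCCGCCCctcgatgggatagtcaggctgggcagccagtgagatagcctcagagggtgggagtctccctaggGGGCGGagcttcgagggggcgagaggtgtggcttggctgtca
Dsp: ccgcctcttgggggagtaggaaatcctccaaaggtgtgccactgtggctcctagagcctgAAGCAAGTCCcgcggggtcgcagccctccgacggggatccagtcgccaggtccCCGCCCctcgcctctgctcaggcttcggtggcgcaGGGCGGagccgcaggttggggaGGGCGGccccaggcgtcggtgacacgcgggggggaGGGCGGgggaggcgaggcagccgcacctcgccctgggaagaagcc
In the Jup sequence the capitals are 2 Sp1 matches, at 112 and 42 bases before the start. In the Dsp sequence they are 4 Sp1 matches and 1 p53 family half-site, AAGCAAGTCC, beginning 190 bases before the start. A Dsp match to the E-box began 3 bases after the start, outside the bases shown. No matches overlapped, and neither promoter held the Grhl or AP-1 letters. Over the 32851 promoters of the table, each 300 bases with 50 after the start, 35.7% held the Sp1 motif, 20.2% the E-box, 8.36% the half-site, 7.81% the AP-1 motif and 2.09% the Grhl motif. The windows of Jup and Dsp were 60.7% and 73.0% G and C, against a median of 52.7%.

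Whether desmosome genes changed unequally was examined on the log2 ratio of 2 genes within each array, for 7 pairs. In 2 pairs, Pkp3 with Pkp2 and Jup with Dsp, both genes were measured in both groups. These ratios differed between SCC and WT at the smallest p that 252 splits of the arrays can give (exact two-sided permutation p 0.00794, and 0.00794 after adjustment over the 7 pairs). The other 5 pairs hold Pkp1, Dsg3 or Dsc2, which passed the filter through the SCC arrays alone, so they are given as a description with no test. Among plakophilins, Pkp3 rose more than Pkp2 by 2.50 log2 units (95% interval 1.82 to 3.17). The fitted difference of Pkp1 exceeded that of Pkp2 by 12.43, that of Pkp3 by 9.94 and that of Dsp by 9.48. With the background limit of each array in place of dark WT values, a replacement chosen after the data were seen, the differences of Pkp1 from Pkp2, Pkp3 and Dsp were 10.90, 8.40 and 7.95, still without overlap. With normexp they were 8.16, 5.72 and 5.23.

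Among cadherins, the fitted difference of Dsg3 exceeded that of Dsg2 by 5.30, and that of Dsc2 exceeded it by 5.56. Both rested on dark WT levels, of Dsg3 on all WT arrays and of Dsc2 on 4 of 5. With the background limit in their place Dsc2 minus Dsg2 was 5.20, without overlap, and with normexp it was 2.95. Dsg3 minus Dsg2 was 1.45 with normexp. With the background limit it was 3.53, the groups overlapped, and SCC replicate 2 was below the WT mean, at -1.11, whereas the other 4 SCC arrays were between 4.39 and 5.01. Before that replacement SCC replicate 2 was at 0.67 and the others were between 6.16 and 6.79.

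The Jup to Dsp ratio was the most even of the 7. Relative to the WT mean it stood at -2.39, -2.17, -2.41, -2.27 and -2.43 log2 units on SCC replicates 1 to 5. Jup relative to Dsp was thus lower on every tumour than on any lung, the mean being -2.33 (95% interval -2.53 to -2.14), or 5.04-fold. Its SD over the SCC arrays was 0.11, where the SD of Jup itself was 0.58 and that of Dsp 0.67. SCC replicate 2, low for both genes, was within 0.1 log2 units of SCC replicate 4 for their ratio.

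**Figure D3:**
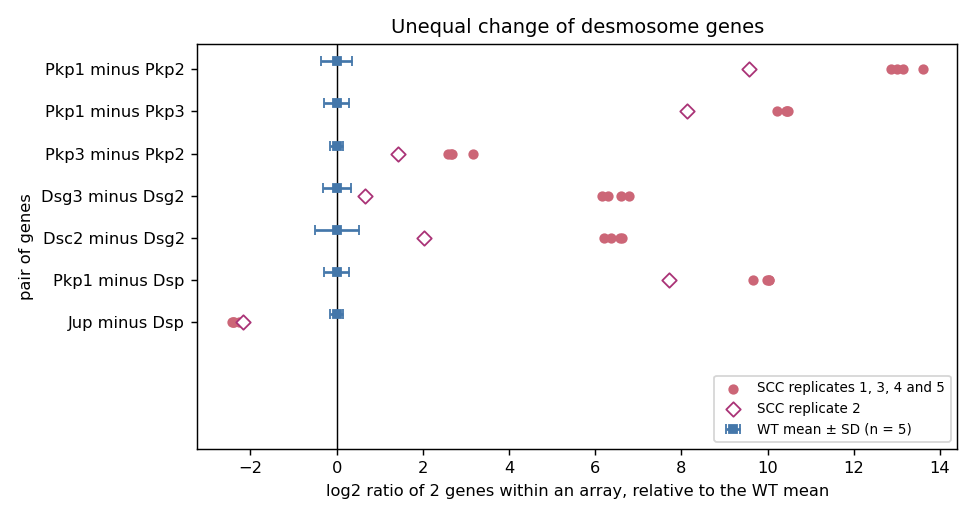
Log2 ratio of 2 desmosome genes within each SCC array, relative to the mean of the 5 WT arrays, for 7 pairs (circles, SCC replicates 1, 3, 4 and 5; open diamond, SCC replicate 2; squares with bars, WT mean ± SD, n = 5). Pkp1 stands 9.56 to 13.60 above Pkp2, Jup minus Dsp lies between -2.43 and -2.17 on every tumour, and Dsg3 minus Dsg2 is only 0.67 on SCC replicate 2.

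SCC replicate 2 differed from the other tumours gene by gene. Against the mean of the other 4 SCC arrays it was lower by 4.93 log2 units for Dsg3, by 3.68 for Pkp1, by 3.55 for Dsc2 and by 1.98 for Perp. Dsp, Pkp3 and Jup were lower there by 1.47, 1.42 and 1.27, Pkp2 by 0.09, and Dsg2 was higher by 0.86. SCC replicate 2 was the lowest tumour for 12 of the 13 probes of the other 8 genes, and the highest for 3 of the 4 Dsg2 probes. The other 4 tumours were close to each other, with SDs from 0.06 for Dsg2 to 0.33 for Dsg3. Without SCC replicate 2, the differences from WT of Dsc2, Pkp3 and Dsp were 8.22, 2.90 and 3.37. With SCC replicate 5 left out as well, they were 13.37 for Pkp1, 8.29 for Dsg3, 8.23 for Dsc2, 4.25 for Perp, 3.36 for Dsp, 2.92 for Pkp3, 1.77 for Dsg2, 1.00 for Jup and 0.12 for Pkp2. Leaving out SCC replicate 2 gave ratios of 13.15 for Pkp1 minus Pkp2, 10.39 for Pkp1 minus Pkp3, 2.76 for Pkp3 minus Pkp2, 9.92 for Pkp1 minus Dsp, 6.46 for Dsg3 minus Dsg2, 6.44 for Dsc2 minus Dsg2 and -2.37 for Jup minus Dsp, so that the last moved least. Of the keratins of simple epithelium, Krt8 and Krt18 were also highest on SCC replicate 2, at 16.39 and 17.07 against 14.78 to 15.24 and 15.48 to 16.41 on the other tumours. Krt19 was highest there too, at 16.05 against 15.36 to 16.00, but Krt7 was lowest there, at 16.92 against 17.44 to 17.68. Krt6b and Krt16, of squamous epithelium, were lowest there, at 8.34 and 11.44 against at least 14.09 and 16.55. Markers of lung and heart cells moved with this array. It had the highest mean level among the tumours for endothelial genes (13.00 against 11.92 to 12.22), alveolar type 1 genes (13.56 against 12.98 to 13.28), alveolar type 2 genes (14.54 against 13.79 to 14.04), heart muscle genes (8.90 against 6.96 to 8.05) and general epithelial genes (14.86 against 14.31 to 14.53), and the lowest for mesothelial genes (7.65 against 7.76 to 9.13). Their part in its desmosome levels was not tested.

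Of 6 other desmosomal cadherins, 4 had a probe and 1 could be tested. Dsg1b, a desmoglein of upper squamous layers, was at least 1.48-fold higher in SCC (limma difference 1.47, SE 0.44, adjusted p 0.0207), from a level not well above background on any WT array. It passed the filter on dim probes through the SCC arrays alone, so a difference was built into the selection, and its call ended with normexp (difference 0.33). The call also ended in the fit that had slide as a fixed block, where the difference was no smaller (1.496). SCC replicate 2, at 3.08, lay within the WT range of 2.70 to 3.53. The brightest probe of Dsc1 was well above background on SCC replicate 5 alone, and its other probe on 3 SCC arrays, replicates 1, 3 and 4. Dsg4 was well above background on SCC replicate 5 alone, at 2.67, and Dsg1a on no array. The lowest signal well above background was 2.14 on SCC replicate 5 and 3.81 to 4.32 on the other 9 arrays, so a Dsg4 level of that size would have been below the limit on each of them. Dsg1c and Dsc3 were not analysed here.

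Of 8 other desmosome-associated proteins, 3 rose, none fell, and the median difference was 0.05. The 3 were envelope and surface partners of squamous cells. Corneodesmosin (Cdsn), a glycoprotein of modified desmosomes in cornified epithelium, was higher by 3.47 (SE 0.87, limma adjusted p 0.00861), with SCC replicate 2 at 5.05, below all WT arrays, and the other tumours at 9.63 to 10.22. Envoplakin (Evpl) was higher by 3.47 (SE 0.66) and periplakin (Ppl) by 1.57 (SE 0.39, limma adjusted p 0.00836), both being plakins related to desmoplakin. Ppl on SCC replicate 2, at 12.45, was below all WT arrays, which reached 12.59. Without SCC replicate 2 the differences of Cdsn, Evpl and Ppl were 4.42, 4.18 and 1.98. With slide as a fixed block all 3 calls ended, the differences being 2.91, 2.50 and 1.22 (limma adjusted p 0.282, 0.203 and 0.293). Pkp4, Kazn, Tchp, Pnn and Ctnnd1 differed by -0.10 to 0.06 and did not pass. The probes of Kazn disagreed, since another of them was lower in SCC by 2-fold or more (difference -1.88, limma adjusted p 1.61e-05).

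Keratins that desmoplakin anchors were higher for 8 of 10, with a median difference of 8.47. Krt6a and Krt6b had passed the filter through the SCC arrays alone, and of the 8 keratins measured in both groups 6 were higher, with a median of 4.63. Krt5 and Krt14, the pair of basal squamous cells, differed by 11.35 and 10.40, and Krt16 and Krt17 by 8.81 and 8.12. Krt6a and Krt6b were at least 1498-fold and at least 604-fold higher, and at least 3135-fold and at least 1422-fold without SCC replicate 2. The simple-epithelial Krt18 and Krt19 rose by 1.00 and 1.15, while Krt8 (0.59) and Krt7 (0.76) did not pass the rule. Without SCC replicate 2 Krt18 differed by 0.77, under 2-fold, and 7 keratins were higher, with Krt5 at 11.74, Krt14 at 10.98, Krt16 at 9.88 and Krt17 at 9.03. A second probe of Krt7 was higher by 1.17 and passed (limma adjusted p 0.00243). With slide as a fixed block Krt18 (1.14, limma adjusted p 0.159) and Krt19 (0.89, adjusted p 0.134) were no longer called, and the call of Krt18 also ended with normexp (0.99), with array quality weights (0.95) and without WT replicate 2 (0.96), WT replicate 4 (0.99) or SCC replicate 1 (0.93).

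Adherens junction genes, the other cadherin junction of epithelia, went both ways, with 4 of 14 higher, 3 lower and a median of -0.15. Cdh3 (P-cadherin of basal cells) rose by 4.39 log2 units, Nectin4 by 3.08, Nectin1 by 2.35 and Nectin2 by 1.10. Cdh5 of endothelium, Nectin3 and the N-cadherin gene Cdh2 fell by 2.37, 2.17 and 2.35. Cdh1, the E-cadherin gene, was separate between the groups but differed by 0.77, under 2-fold. Cdh2 had passed the filter through the WT arrays alone, and of the 12 genes measured in both groups 4 were higher and 2 lower. With slide as a fixed block the calls of Nectin4 (2.54, limma adjusted p 0.0564) and Cdh2 (-1.74, adjusted p 0.269) ended, and with normexp that of Cdh2 (-0.63).

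Of 12 desmosome regulators tested, 5 were higher, 1 was lower and the median was 0.31. Trp63, master regulator of stratified epithelium, rose by 7.44 log2 units, and Ovol1 by 3.32. Grhl1 and Grhl2, activators of epithelial genes, rose by 3.02 and 1.32. Egfr, a receptor kinase, rose by 1.10 (1.38 without SCC replicate 2, which lay within the WT range). With slide as a fixed block the calls of Grhl1 (2.32, limma adjusted p 0.128) and Egfr (1.05, adjusted p 0.209) ended. Zeb1, a repressor of epithelial genes, fell by 2.24. Snai1 and Snai2, repressors of the same kind, differed by -0.84 and -0.53 and did not reach 2-fold. Zeb2, a further repressor, differed by -0.77 at its brightest probe and did not pass, whereas its other probes were called lower, the larger difference being -1.36.

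**Figure D4:**
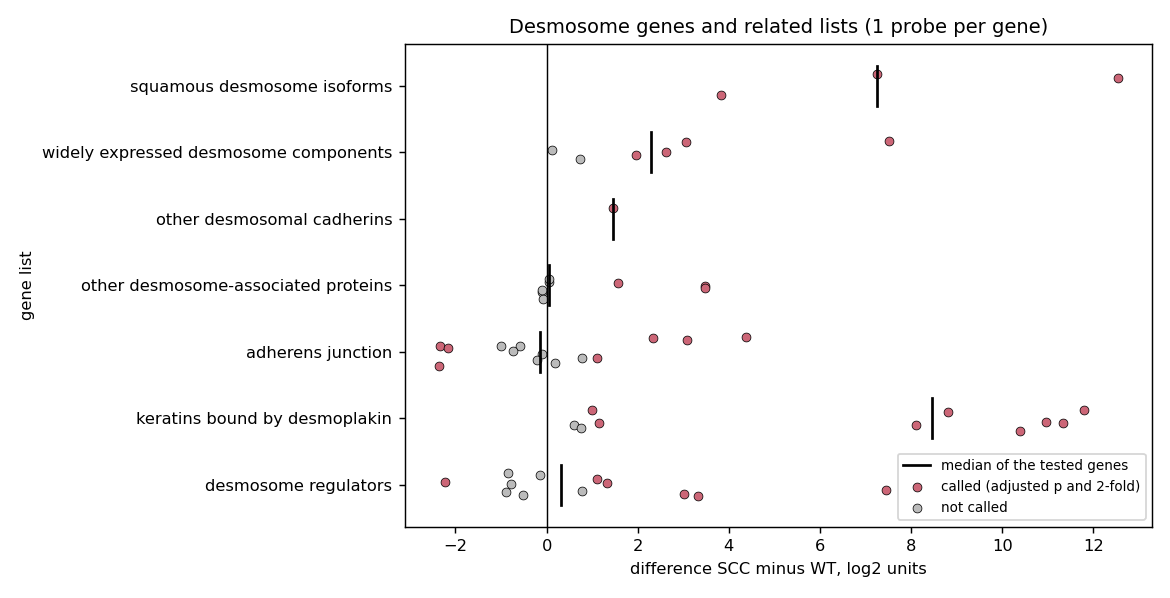
Difference SCC minus WT in log2 units for every tested gene of the desmosome groups and of related lists, 1 probe per gene, with the median of each list as a black line and genes past the adjusted p and 2-fold in red. Keratins sit highest as a list (median 8.47), squamous isoforms have a median of 7.25 over 3 genes (5.48 with dark genes at their bound), widely expressed components 2.28 over 6, and adherens junction genes lie on both sides of 0. Over genes measured in both groups the median is 3.84 for squamous isoforms, Perp alone, and 1.95 for 5 widely expressed components.

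Other cells of the lung and heart hold desmosome RNA, and markers of several of them moved with the groups. Of 12 heart muscle genes, 10 were lower in SCC and none was higher, and of the 10 measured in both groups 8 were lower. Their mean level was 8.90, 12.48, 11.06, 10.48 and 10.58 on WT replicates 1 to 5, and 6.96 to 8.90 on the SCC arrays. Over the same WT arrays, of the desmosome genes that heart muscle also uses, Pkp2 was at 12.51 to 12.80 and Dsp at 12.32 to 12.64. Jup was at 9.70 to 10.03, Dsg2 at 8.95 to 9.71 and Dsc2 at 3.20 to 4.04. Dsc2 alone of them was lowest on WT replicate 1 and highest on WT replicate 2, as were the heart muscle means. Its signal was well above background on 1 of the 5 arrays. General epithelial genes were higher for 5 of 7 tested, with mean levels of 13.01 to 13.37 in WT and 14.31 to 14.86 in SCC. Alveolar type 1 genes were lower for 6 of 7 (mean levels 14.67 to 14.95 in WT and 12.98 to 13.56 in SCC) and alveolar type 2 genes for 1 of 8 (14.59 to 14.73 and 13.79 to 14.54). Endothelial genes were lower for 9 of 10 (14.35 to 14.55 and 11.92 to 13.00). Mesothelial genes were lower for 5 of 7 and higher for 1, Krt19 (3 and 1 of the 5 measured in both groups), with mean levels of 11.29 to 11.67 in WT and 7.65 to 9.13 in SCC. The part of these markers in the desmosome differences was not tested.

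The genes whose pattern was most like 3 of the desmosome genes were ranked by Pearson r over the 10 arrays, among 15513 genes with a value on every array, after the 9 desmosome genes had been set aside. The arrays fall into 2 groups and share their probes' normalization, so r mostly ranks genes by their SCC to WT contrast and is a description. For Pkp1 the closest were Krt14 (r = 0.999), Lhfpl1, Plek2, Sprr2d and Urah (each 0.998). For Dsp they were Aqp3, Fam83h, Gjb2, Sprr2d and Socs3 (0.997 to 0.998). Among the desmosome genes themselves Dsc2 (0.999) and Pkp3 (0.998) were closer to Dsp than any of these. For Pkp2, whose levels hardly differed between the groups, they were Trappc2l (0.903), Nxph4, Prnp, Rbp4 and Kiss1 (0.847).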

How the data were processed

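RNA of 5 WT lungs and 5 SCC had been measured on 10 arrays, grouped and numbered by sample title. Per the labels and file headers, the authors read the images with Agilent Feature Extraction (version 12). The deposited scanner files hold a background-subtracted processed intensity per spot, on a linear scale, and flags for outliers, saturation and signal well above background. A second deposited file, a matrix of log2 values from the authors, has columns that each had a median of 7.2 and matched log2 of the quantile-normalized intensity at r of at least 0.9999. It served as an alternative.

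Control and outlier spots were left out, spots of a probe were averaged as log2 intensity, and the arrays were quantile-normalized, as the study's methods state. A probe was tested if at least 0.5 of its spots were well above background on at least 4 arrays of a group (30374 of 41174 probes). No probe was saturated. Differences came from limma 3.58.1 (R 4.3.3) in place of the methods' one-way analysis of variance, two-sided, over all 10 arrays without covariates. P-values were adjusted by the Benjamini-Hochberg method over all probes tested. A call needed an adjusted p below 0.05 and 2-fold. Ratios of 2 genes were compared with exact permutation tests (scipy 1.17.1), with 95% intervals from the pooled spread. Against a group not well above background, a fold is a bound, the group's level being taken per array as the higher of the probe's own and the lowest signal well above background. The fit was tested on simulated data.

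Accessions were paired with symbols through RefSeq genes (GRCm38.p6), which named 28223 probes (68.5%). The header's build differs, so no probe coordinates are given. The genes named are the 9 desmosome genes, genes of the lists (other desmosomal cadherins, other desmosome-associated proteins, adherens junction, keratins, regulators, cell type markers), and the 5 most like Pkp1, Pkp2 and Dsp. The desmosome genes and all lists were chosen with earlier results of these data known. Nothing in the labels beyond the titles says that each array is a separate mouse. P-values measure the spread between these samples. Slide 1 carried WT replicates 1 to 4, slide 2 carried WT replicate 5 with SCC replicates 1 to 3, and slide 3 the remaining SCC arrays. Precision is limited by the number of arrays. Alternatives changed the scaling, background correction, dim-probe filter, slide, replicate block, test, weights or arrays. Normexp background correction added an offset of 50 to every signal before log2. For ratios, a background limit in place of dark WT values was added after the data were seen.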

Additional observations from a re-analysis of the deposited data

Results flagged for a closer look

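In 13 of 32 groups of 5 arrays examined, 1 array stood far from the other 4, the gap to its nearest neighbour being over 0.71 of the whole range. Chance gives about 1 in 20 such groups, and the groups share arrays. All 13 concerned SCC replicate 2. It was high for Dsg2, where the gap was 0.845 of the range. It was low for Pkp1 (0.885), Perp (0.867), Dsg3 (0.855), Dsc2 (0.853), Pkp3 (0.848), Dsp (0.823) and Jup (0.756). For the within-array ratios it was low for Dsc2 minus Dsg2 (0.91), Dsg3 minus Dsg2 (0.898), Pkp1 minus Pkp3 (0.888), Pkp1 minus Dsp (0.838) and Pkp1 minus Pkp2 (0.815). Pkp2, Pkp3 minus Pkp2 and Jup minus Dsp were not among them. The label of this array says SCC as for the others. It was also the only tumour with low Xist (2.58) and the one with the highest Ddx3y (11.28). What sets it apart was not tested.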

How the results depend on the processing

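The 7 desmosome genes past the adjusted p and 2-fold kept their direction under the alternatives that gave them a value, and Dsg3, Dsc2 and Pkp1 had none with the filter on all 10 arrays. Within slide 2, which holds 3 SCC arrays and 1 WT array, all 9 differences were positive but limma called 0 probes, 0 desmosome genes and 0 genes of each other list (adherens junction, keratins, regulators, other desmosomal cadherins, other desmosome-associated proteins). At an unadjusted p below 0.05 it gave 5835 of 30374 probes and 6 of the 9 genes. The differences there were 12.04 for Pkp1 (limma adjusted p 0.180), 6.76 for Dsc2 (0.198), 6.56 for Dsg3 (0.261), 3.61 for Perp (0.205), 2.82 for Dsp (0.202), 2.46 for Pkp3 (0.219), 1.67 for Dsg2 (0.215) and 0.71 for Jup (0.559), and Jup minus Dsp was -2.12. With slide as a fixed block 2989 probes were called, 1402 higher and 1587 lower, and 7 desmosome genes. Slide 1 carried WT alone and slide 3 SCC alone, so the differences of that fit were those within slide 2. Jup (0.71, adjusted p 0.323) no longer passed, and the counts of other desmosomal cadherins and of other desmosome-associated proteins went to 0. Slide as a random block called 7 desmosome genes and 3029 of 30374 probes higher. Normexp background correction, run on median spot signals, called 4044 probes, 1940 higher and 2104 lower, and 0 other desmosomal cadherins, and brought Dsg3 to 3.16, Dsc2 to 4.67, Pkp1 to 8.30 and Dsg3 minus Dsg2 to 1.45. With probes well above background on all 10 arrays 4 desmosome genes of 6 tested and 2283 of 26551 probes were called higher. Dsg1b did not pass that filter, so no other desmosomal cadherin could be called. Adjusted p alone called 14878 probes. Scaling to the 75th percentile moved the median difference of all tested probes from -0.09 to 0.03 and the share of higher calls from 43.3% to 53.2% (3014 higher and 3940 lower became 3504 and 3080), with the same 7 genes counted. For Jup, limma's adjusted p was 0.0595 with the replicate block (difference 0.74) and the methods' t-test gave 0.0513 (0.74). Leaving out 1 array moved Jup's difference between 0.64 and 0.99. Same-numbered samples did not deviate together (r from -0.103 to 0.009), so replicate numbers pair nothing. The replicate block changed no other call on the 9 genes, and called 6571 probes against 6954. For ratios of 2 genes a slide or replicate block was not run. The offset of 50 in normexp lowers log2 differences of dim probes by construction. Otherwise the cause of these changes was not tested, beyond fewer arrays within slide 2 and fewer probes with the stricter filter. Dim signal limits Dsg3, Pkp1 and Dsc2 in WT lung to bounds.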
